A study of Mus musculus with 6 samples.

Results

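The annexins are calcium-dependent proteins that bind phosphatidylserine and other acidic phospholipids on the inner face of cell membranes, and S100A10 and S100A11 are small EF-hand proteins that join annexin molecules into pairs. Transcripts of 10 such genes were followed here: the 8 annexin genes Anxa1 to Anxa7 and Anxa11, and the partner genes S100a10 and S100a11. They were found by symbol among 55487 genes, with 1 row each and none missing. The set was selected on the measured level of Anxa2, which was higher in the knockout libraries, so the difference between the groups chose it and is given below as a description: no p-value is given for a member, and counts of members past a threshold stand only beside the share of all genes past it. The libraries came from brain cortex of female mice 20 months old, 3 with the genotype Atg7-fl/fl;Cx3cr1-CreERT2 (knockouts) and 3 with Atg7-fl/fl alone (controls). Both groups carried the floxed Atg7 alleles, and the controls carried no Cre, so loss of Atg7, which encodes an enzyme of autophagosome formation, cannot be told apart from presence of the Cre allele. The Cre is expressed from the Cx3cr1 locus, which is active in microglia and in other myeloid cells, and the labels used here give neither a tamoxifen treatment nor the time since deletion. Each library came from 1 mouse, from viable cells sorted as CD11b-positive with intermediate CD45.

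Annexin A1 is a ligand of formyl peptide receptors and restrains the entry of neutrophils into inflamed tissue, and glucocorticoids raise its expression. Annexin A2 and S100A10 form a complex at the plasma membrane that takes part in exocytosis, endosome positioning, membrane repair and the surface conversion of plasminogen to plasmin. Annexin A5 is the protein used to stain phosphatidylserine on dying cells, and annexins as a family are recruited to torn membrane when calcium enters a cell. In the brain, resting microglia are known for Anxa3, whereas Anxa1 and Anxa2 are abundant in neutrophils, monocytes and other macrophages.

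Depth was uneven: knockouts 1 to 3 held 33129233, 3789208 and 21282335 reads, and controls 1 to 3 held 39389527, 38798703 and 1254380 reads. Knockout 2 and control 3 are the shallow libraries. In control 3 a floor of 3 reads was 2.36 CPM (reads scaled to a common depth with TMM factors), which limits every low level there, against 0.0789 CPM in control 1. The labels were checked with Atg7, which lay at 25.1 CPM ± 1.39 in knockouts and 62.9 CPM ± 5.46 in controls (SD, n = 3 each). Cx3cr1, the locus that carries the Cre, lay at 4710 CPM ± 791 in knockouts and 10620 CPM ± 907 in controls (SD, n = 3 each), and edgeR called both genes lower (adjusted p = 0.0147 and 0.00126). Microglial identity was checked with 8 markers, among them Tmem119, P2ry12 and Sall1, whose summed level was 35478 to 39969 CPM in knockouts and 38237 to 44054 CPM in controls. Markers of other myeloid cells were also present. The 8 neutrophil markers summed to 70.4 to 1250 CPM in knockouts and 27.5 to 347 CPM in controls, and the 10 border-associated macrophage markers to 65.0 to 262 CPM in knockouts and 15.3 to 90.4 CPM in controls.

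All 10 members passed the filter on low counts. Of these, 9 had a log2 fold change (knockout over control) above 0, against 52.5% of all 15787 genes tested, and their median was 0.48, against 0.02 for all genes. For 6 members, Anxa2, Anxa3, Anxa4, Anxa5, Anxa7 and S100a11, every knockout was above every control, which held for 6.59% of all genes. For 0 members every knockout was below every control, against 4.47% of all genes (11.1% for both directions together). By edgeR's quasi-likelihood test with Benjamini-Hochberg adjustment over all genes, 0 of 10 members were called at an adjusted p under 0.05, in a fit that called 0.0443% of genes, 0.0317% higher and 0.0127% lower. Before adjustment, 5 members were higher and 0 lower with p under 0.05, against 2.34% and 1.98% of all genes (4.32% together). DESeq2 and limma voom each called 1 member higher, Anxa2. Over all genes DESeq2 called 46 of 16336 higher and limma voom 9 of 15787. Because the contrast itself chose the set, none of these shares is evidence about it.

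**Figure D1:**
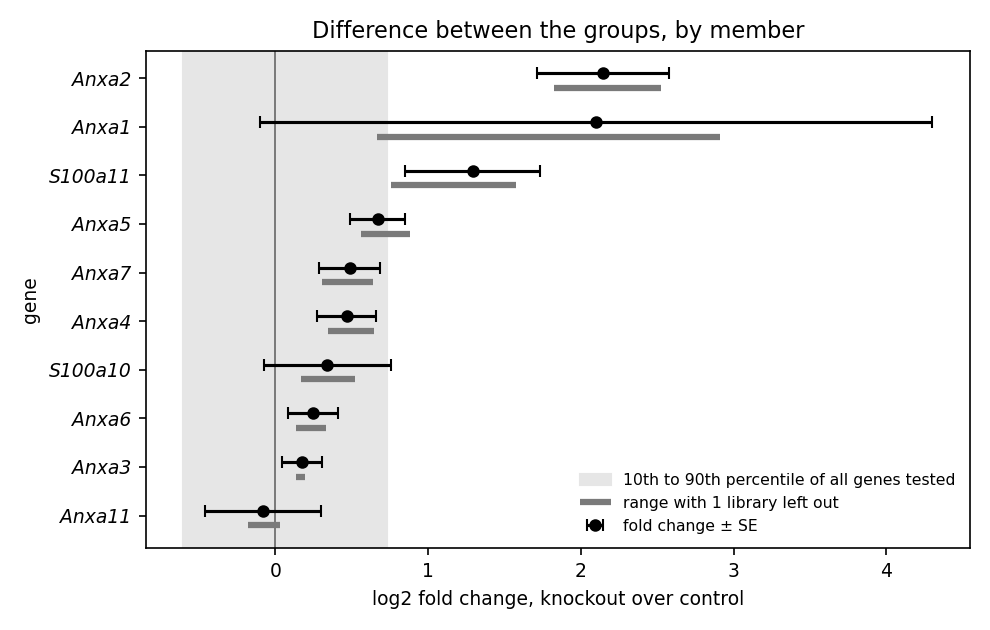
Log2 fold change (knockout over control) of each member on the x axis with its SE, the range when 1 library was left out, and the band between the 10th and 90th percentiles of all genes tested (-0.60 to 0.73). Anxa2, Anxa1 and S100a11 lie beyond the band, and Anxa1 has by far the widest error.

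Anxa2 encodes the annexin that binds S100A10. Its level was 22.2, 26.8 and 13.6 CPM in knockouts 1 to 3, against 3.21, 3.90 and 9.43 CPM in controls 1 to 3. All 3 knockouts were higher than all 3 controls, with knockout 3 and control 3 closest to each other. The means were 20.9 CPM ± 6.70 in knockouts and 5.51 CPM ± 3.41 in controls (SD, n = 3 each), a ratio of 3.78 and a log2 fold change of 2.15 (SE 0.43). By the ratio of means Anxa1 was slightly higher, at 3.80. By edgeR's log2 fold change Anxa2 was the highest of the 10 members, by a small margin over Anxa1. Anxa2 stood at the 98.8th percentile of all genes tested. The value of control 3 rests on 12 reads, with an exact Poisson 95% interval of 4.87 to 16.5 CPM that takes in the level of knockout 3. Without control 1 the log2 fold change was 1.83, and without control 3 it was 2.52 and passed edgeR's threshold, which is no independent evidence, since the level of Anxa2 in these libraries chose the set. In the GENCODE M21 annotation 2.63% of the exonic bases of Anxa2 are shared with the predicted gene Gm16144.

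S100a11 encodes the partner of annexin A1 and stood nearest to Anxa2 among the members by the measure of difference over the libraries given below. It had 19.6, 9.87 and 7.49 CPM in knockouts 1 to 3, against 3.84, 6.48 and 4.71 CPM in controls 1 to 3. The groups did not overlap, although knockout 3 was close to control 2, and knockout 1 was far above the rest. The log2 fold change was 1.29 (SE 0.44), and 0.76 without knockout 1. Control 3 held 6 reads of S100a11, with an interval of 1.73 to 10.3 CPM that covers knockouts 2 and 3.

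The promoters of Anxa2 and S100a11, whose transcripts had the largest fold changes of the members that did not overlap, are shown with that of Anxa5, the next in size. Each runs from 250 bases before to 50 bases after the annotated start, 5′ to 3′ on the gene's strand, from RefSeq on GRCm38.p6: chr9:69453433-69453732 (plus strand), chr3:93520246-93520545 (plus strand) and chr3:36475838-36476137 (minus strand) in the order printed. Capitals mark the AP-1 motif TGANTCA, which reads the same on both strands.
Anxa2: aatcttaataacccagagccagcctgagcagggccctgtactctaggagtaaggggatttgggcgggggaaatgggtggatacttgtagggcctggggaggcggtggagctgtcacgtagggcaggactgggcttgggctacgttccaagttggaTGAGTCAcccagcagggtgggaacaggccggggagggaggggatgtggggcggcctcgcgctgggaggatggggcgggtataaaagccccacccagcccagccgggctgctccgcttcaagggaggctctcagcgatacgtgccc
S100a11: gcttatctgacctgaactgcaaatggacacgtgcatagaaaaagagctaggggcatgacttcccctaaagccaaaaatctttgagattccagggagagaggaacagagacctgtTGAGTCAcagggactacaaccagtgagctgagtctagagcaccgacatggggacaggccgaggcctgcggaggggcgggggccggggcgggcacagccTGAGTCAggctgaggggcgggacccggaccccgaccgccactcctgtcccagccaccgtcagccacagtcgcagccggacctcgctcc
Anxa5: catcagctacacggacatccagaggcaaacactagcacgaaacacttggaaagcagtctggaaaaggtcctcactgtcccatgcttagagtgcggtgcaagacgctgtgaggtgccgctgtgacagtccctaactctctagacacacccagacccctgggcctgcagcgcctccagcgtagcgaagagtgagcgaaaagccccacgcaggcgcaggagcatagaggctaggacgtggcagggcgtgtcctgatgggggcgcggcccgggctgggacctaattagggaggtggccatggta
Anxa2 holds 1 match, which begins 95 bases before the start, S100a11 holds 2, which begin 136 and 38 bases before it, and Anxa5 holds 0. Of all 32851 promoters of this length, 7.81% hold at least 1 match and 0.460% hold 2 or more. Promoters were found for 7 of the 10 members, and Anxa1, Anxa4, Anxa7 and Anxa11 hold 0 matches. The antioxidant response core TGACNNNGC, searched on both strands, was found in 1 of the 2 annotated promoters of Anxa4 and in 1 of the 2 of Anxa7, against 12.4% of all promoters; some runs of letters match both motifs. The GC box GGGCGG, also searched on both strands, matched 3 times each in Anxa2, S100a11 and Anxa11, 4 times and 1 time in the 2 promoters of Anxa7, 1 time and 0 times in the 2 of Anxa4, and 0 times in Anxa5 and Anxa1, against at least 1 match in 35.7% of all promoters. A match is a run of letters and does not show that a factor binds there.

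S100a10 encodes the light chain of the annexin A2 complex, a protein that is stabilised by binding annexin A2. Its level was 5.95, 9.35 and 7.58 CPM in knockouts 1 to 3, against 7.07, 5.16 and 5.50 CPM in controls 1 to 3. The groups overlapped, since control 1 was above knockout 1, and the log2 fold change was 0.34 (SE 0.42). Per kilobase of exon, the ratio of Anxa2 to S100a10 was 1.21, 0.929 and 0.582 in knockouts 1 to 3, against 0.147, 0.245 and 0.557 in controls 1 to 3. Anxa2 transcripts thus stood near or above the level of S100a10 in knockouts 1 and 2 and well below it in controls 1 and 2, with knockout 3 and control 3 almost alike. The ratio depends on the length used. Over all exons the knockout means were 5.59 CPM per kilobase for Anxa2 and 6.29 for S100a10. Over the principal transcript they were 14.4 and 11.1, and the control means 3.81 and 8.63.

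**Figure D2:**
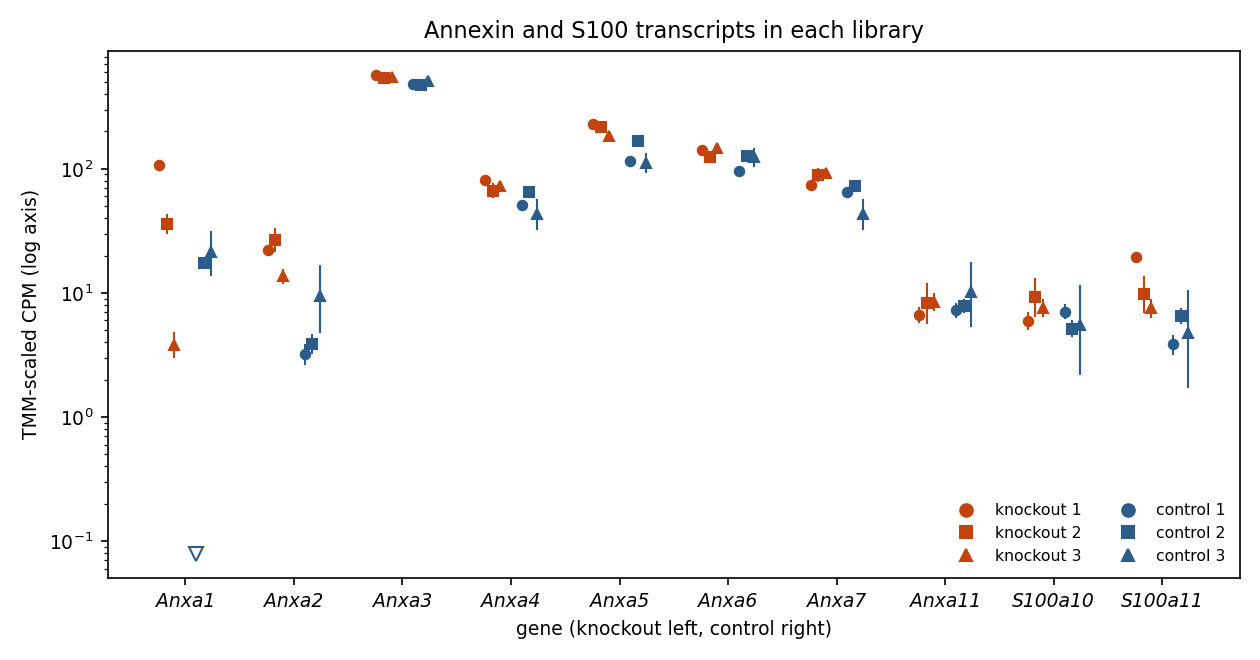
TMM-scaled CPM (log axis) of each member in each library, knockouts left and controls right of each gene; bars are exact Poisson 95% intervals, which cover counting error only, and the open triangle marks a library with 0 reads at its floor of 3 reads. Anxa1 spans more than any other member within both groups, and the wide bars of control 3 show how few reads it holds.

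Anxa1, the ligand of formyl peptide receptors, varied far more within the groups than any other member. It had 107, 35.8 and 3.81 CPM in knockouts 1 to 3, against 0, 17.4 and 21.2 CPM in controls 1 to 3. The groups overlapped, with knockout 3 below controls 2 and 3. The 0 of control 1 is a count of 0 in 39389527 reads, which allows up to 0.0789 CPM, whereas control 2, of nearly equal depth, held 647 reads. The coefficient of variation was 108% in knockouts and 87.9% in controls, against 2.63% to 52.0% and 3.85% to 61.9% for the other members. The log2 fold change of 2.10 had an SE of 2.20, and it was 0.67 without knockout 1.

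The libraries ranked by Anxa1 in the same order as by the summed neutrophil markers, which were 1250, 444 and 70.4 CPM in knockouts 1 to 3 and 27.5, 232 and 347 CPM in controls 1 to 3. They ranked in that order also by the summed monocyte markers, at 155, 80.5 and 33.5 CPM in knockouts and 15.1, 48.5 and 55.0 CPM in controls. Chil3, the monocyte marker with the highest mean in both groups, had this order by itself. It had 107 and 50.9 CPM in knockouts 1 and 2, and 24.2 and 36.9 CPM in controls 2 and 3. Ccr2 did not follow the order, with 6.52 CPM in control 1 and 3.36 CPM in control 2. Nor did Ly6c2, with 0.973 CPM in control 1 and 0 reads in control 3. The sum without Chil3 was not tested. For each 100 CPM of neutrophil markers there were 8.55, 8.07 and 5.41 CPM of Anxa1 in knockouts 1 to 3, and 0, 7.49 and 6.12 CPM in controls 1 to 3. In the 5 libraries with Anxa1 reads this quotient thus varied far less than Anxa1 itself. Control 1 departed from it, with 27.5 CPM of neutrophil markers and 0 reads of Anxa1. Of the 8 neutrophil markers 7 had a higher mean in knockouts. The granule genes Ngp, Camp and Ltf made up most of the sum. Ly6g and Mpo, also on the list, were at or below 1.60 CPM in every library, and Ly6g reached that level in knockout 1 (54 reads). The sort took cells of intermediate CD45, a gate meant to leave out neutrophils, monocytes and border-associated macrophages, which are known for high CD45. The part of such cells in the Anxa1 levels was not tested. In bulk libraries, more cells of a type and more RNA per cell cannot be told apart.

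**Figure D3:**
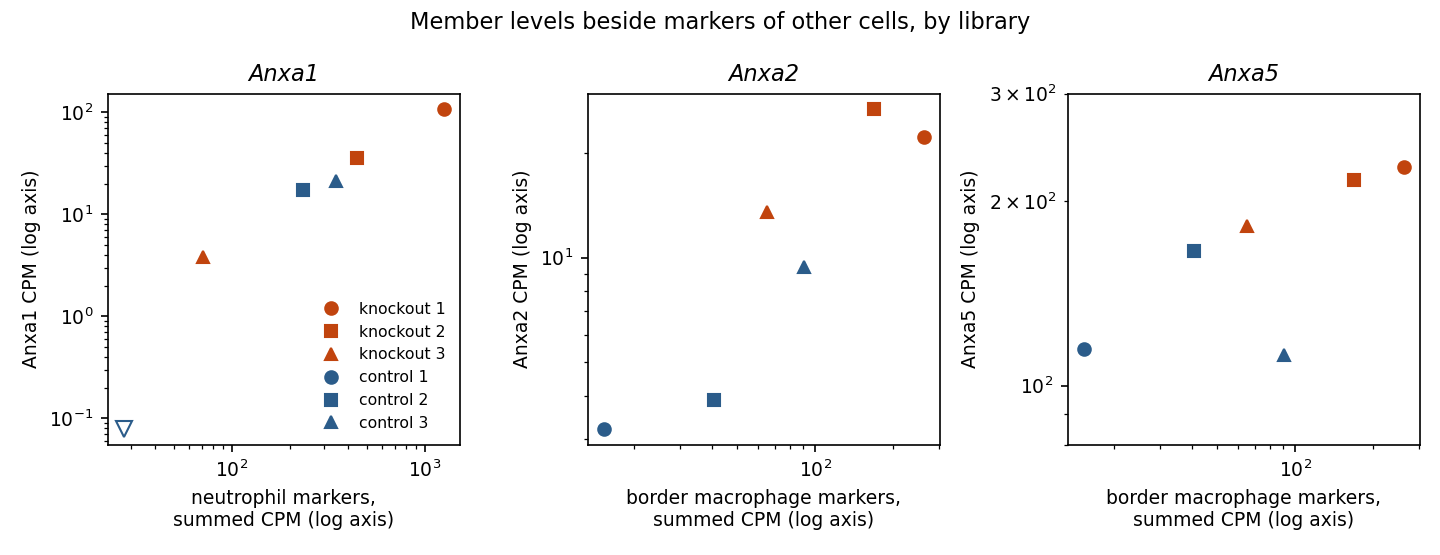
CPM of Anxa1, Anxa2 and Anxa5 (y, log axis) against the summed CPM of neutrophil or border-associated macrophage markers (x, log axis), with 1 point for each library; the open triangle marks 0 reads at the floor. Anxa1 orders the libraries as the neutrophil markers do. Anxa2 is higher in knockout 3 than in control 3 whereas the macrophage sum is lower, an order of the sum that Mrc1 sets. Anxa5 is nearly alike in controls 1 and 3 (115 and 112 CPM), which have the lowest and the highest macrophage sum of the controls.

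For Anxa2, the markers of border-associated macrophages, the resident macrophages of the meninges and perivascular spaces, were set beside its level. All 10 had a higher mean in knockouts, with a median log2 fold change of 2.39. Every knockout was above every control for 3 of them, Pf4, Ms4a7 and Clec10a, against 6.59% of all genes tested. At p under 0.05 before adjustment 4 were higher, against 2.34% of all genes. Over all genes edgeR called 5 of 15787 higher, DESeq2 46 of 16336 and limma voom 9 of 15787. Of the 10 markers edgeR called 0, DESeq2 3 and limma voom 0. Their sums were 262, 169 and 65.0 CPM in knockouts 1 to 3 and 15.3, 40.7 and 90.4 CPM in controls 1 to 3, so that control 3 was above knockout 3. That overlap of the sums rested on Mrc1, the mannose receptor gene, which had 25.4 CPM in knockout 3 and 58.1 CPM in control 3. Cd163, Lyve1, F13a1, Cd209f and Folr2 were also higher in control 3 than in knockout 3, by smaller amounts. Their values in control 3 rest on 1 to 12 reads each. Pf4, Cbr2, Ms4a7 and Clec10a were lower in control 3 than in knockout 3, on 0, 2, 12 and 0 reads in control 3. Clec10a had 0.837 CPM in knockout 3, under the floor of 2.36 CPM in control 3. Its order between these libraries, and so its lack of overlap, cannot be told. Every marker other than Mrc1 thus had at most 12 reads in control 3, which limits any sum without Mrc1. Without Mrc1, an alternative chosen after the data were seen, the sums were 183, 111 and 39.6 CPM in knockouts 1 to 3 and 7.78, 30.3 and 32.2 CPM in controls 1 to 3, and the groups did not overlap, as those of Anxa2 did not. For each 100 CPM of all 10 markers Anxa2 had 8.49, 15.8 and 20.9 CPM in knockouts 1 to 3 and 20.9, 9.59 and 10.4 CPM in controls 1 to 3. Without Mrc1 this quotient was 12.1, 24.2 and 34.3 in knockouts 1 to 3 and 41.2, 12.9 and 29.3 in controls 1 to 3. The quotient overlapped between the groups in both forms. The part of these cells in the Anxa2 levels was not tested.

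Anxa5, whose protein binds exposed phosphatidylserine, had 227, 216 and 182 CPM in knockouts 1 to 3, against 115, 166 and 112 CPM in controls 1 to 3. The groups did not overlap, and the smallest count behind these values was 143 reads. The means were 209 CPM ± 23.6 in knockouts and 131 CPM ± 30.3 in controls (SD, n = 3 each), a log2 fold change of 0.67 (SE 0.18). Among the members with a mean over 100 CPM in both groups, Anxa5 thus had the largest fold change. It ranged from 0.56 to 0.88 when a library was left out and was 0.54 without both shallow libraries.

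Anxa7 and Anxa4 differed by smaller amounts. Anxa7 encodes an annexin with a long proline-rich amino-terminal part and was first studied in chromaffin granule fusion; it had 74.5, 88.8 and 93.0 CPM in knockouts 1 to 3, against 65.3, 72.1 and 43.2 CPM in controls 1 to 3. Its log2 fold change was 0.49 (SE 0.20), and 0.30 without control 3, which was the lowest library. Anxa4, an annexin abundant in epithelia, had 81.2, 66.8 and 72.9 CPM in knockouts 1 to 3, against 50.7, 64.7 and 43.2 CPM in controls 1 to 3. Its groups did not overlap, with knockout 2 just above control 2, and its log2 fold change was 0.47 (SE 0.19), and 0.34 without control 3. For both genes control 3 was thus the library that widened the difference most.

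Anxa3, the annexin most abundant in these cells, had 565, 536 and 546 CPM in knockouts 1 to 3, against 484, 471 and 508 CPM in controls 1 to 3. The groups did not overlap, but the means differed by a factor of only 1.13 (log2 fold change 0.17, SE 0.13), and the libraries of a group lay within a coefficient of variation of 2.63% in knockouts and 3.85% in controls. It was the steadiest of the members. Anxa6, which has a duplicated annexin core and acts in cholesterol transport, had 141, 124 and 147 CPM in knockouts 1 to 3, against 96.6, 127 and 124 CPM in controls 1 to 3. Knockout 2 lay among the controls, and the log2 fold change was 0.25 (SE 0.17).

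Anxa11, which links RNA granules to lysosomes in neurons, was the only member with a log2 fold change below 0, at -0.08 (SE 0.38), and it was 0.028 without control 3. It had 6.66, 8.31 and 8.46 CPM in knockouts 1 to 3, against 7.28, 7.85 and 10.2 CPM in controls 1 to 3, and the highest control rests on 13 reads. The groups overlapped throughout. In the annotation 2.73% of its exonic bases are shared with the antisense gene Anxa11os, and whether reads were counted by strand is not stated in the labels.

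Levels can be compared between genes only per length, and CPM were divided by the kilobases of all annotated exons of a gene together. In knockouts Anxa3 was highest at 151 CPM per kilobase ± 3.96, followed by Anxa5 at 117 ± 13.3 and Anxa6 at 46.8 ± 4.16, and in controls the same 3 genes led in the same order at 134 ± 5.16, 73.7 ± 17.1 and 39.5 ± 5.71 (SD, n = 3 each). In both groups the libraries of these 3 genes overlapped neither each other nor those of the gene next below. In knockouts S100a11, Anxa1, Anxa4 and Anxa7 came next at 24.1, 16.8, 15.8 and 14.3 CPM per kilobase, with overlapping libraries. S100a10 and Anxa2, at 6.29 and 5.59, overlapped each other, and Anxa11 was last and apart at 1.89. In controls Anxa4, Anxa7 and S100a11 came next at 11.4, 10.0 and 9.81 CPM per kilobase with overlapping libraries, and S100a10, Anxa1, Anxa11 and Anxa2 followed at 4.88, 4.42, 2.04 and 1.48, each overlapping the next. S100a11 thus held the fourth place in knockouts and the sixth in controls, and Anxa2 the ninth in knockouts and the last in controls. With the length of the principal transcript in place of all exons, an alternative chosen after the data were seen, Anxa3, Anxa5 and Anxa6 kept their places, Anxa2 took the eighth place in knockouts and the ninth in controls, and S100a11 the seventh in knockouts and the sixth in controls.

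**Figure D4:**
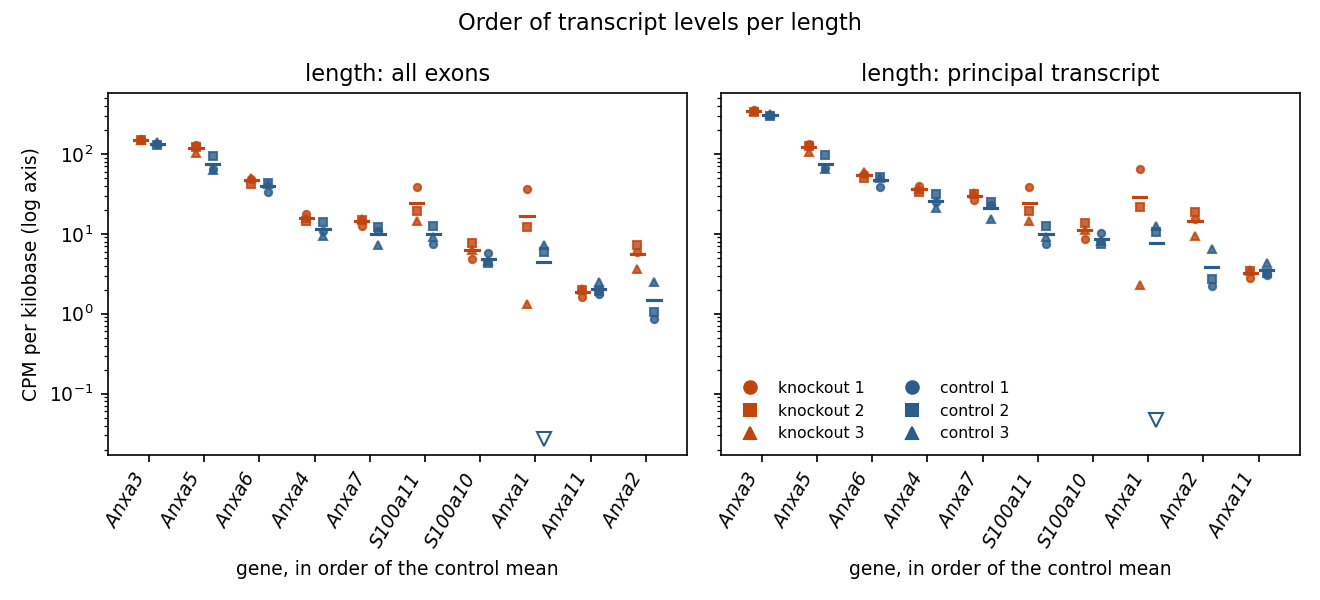
CPM per kilobase (log axis) by gene, with all exons (left) or the principal transcript (right) as length; points are libraries, knockouts left and controls right, lines are group means, and the open triangle marks 0 reads at the floor. Anxa3, Anxa5 and Anxa6 lead in both groups under both lengths, and the low places depend on the length used.

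Summed over the 8 annexin genes, the level was 405, 362 and 341 CPM per kilobase in knockouts 1 to 3, against 255, 301 and 274 in controls 1 to 3. All 3 knockouts were higher. Anxa3 made up 38.3%, 40.7% and 44.0% of this sum in knockouts and 52.1%, 43.0% and 50.9% in controls, and Anxa5 31.6%, 33.6% and 30.1% in knockouts and 25.3%, 31.1% and 23.1% in controls. Both shares overlapped between the groups. The sum and the shares used the length of all exons and depend on it. Over the principal transcript Anxa3 and Anxa5 had means of 344 and 121 CPM per kilobase in knockouts, and 306 and 75.7 in controls. Shares by that length were not computed. Anxa2 was 1.07% to 1.98% of the annexin sum in knockouts and 0.337% to 0.923% in controls, and Anxa1 reached 9.06% in knockout 1 and 0% in control 1.

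The genes whose pattern over the 6 libraries was closest to that of Anxa2 were sought among 8781 protein-coding genes with a mean of at least 5 CPM, by the root mean square difference of log2(CPM + 1) values centred on each gene's mean. The closest were Lyz1, Ccnd2, Iigp1, C4b, Aoah and Ms4a7, with differences of 0.230, 0.329, 0.373, 0.391, 0.393 and 0.407, where the median gene had 1.09. Because they were picked for likeness to Anxa2, their higher levels in knockouts follow from the choice and are no separate result. Lyz1 encodes a lysozyme, Ccnd2 cyclin D2, Iigp1 an interferon-inducible GTPase, C4b complement component 4, Aoah a lipase that removes acyl chains from lipopolysaccharide, and Ms4a7 is 1 of the border-associated macrophage markers. Ms4a7 had 46.3, 28.6 and 15.0 CPM in knockouts 1 to 3, against 3.10, 7.21 and 9.43 CPM in controls 1 to 3, so that here too knockout 3 and control 3 were the nearest pair. Reads of Lyz1 can be shared with its paralog Lyz2, and those of C4b with C4a. Among the other members S100a11 was closest to Anxa2, at 0.671, with Anxa5 next at 0.784, S100a10 at 0.935 and Anxa1 farthest at 1.64. By this measure S100a10, the partner in the complex, was thus farther from Anxa2 than S100a11 and Anxa5 were. The values were centred but not scaled, so the measure also counts the size of a gene's differences. Anxa6 and Anxa3, which differed little between the groups, stood at 0.925 and 0.947, near S100a10.

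**Figure D5:**
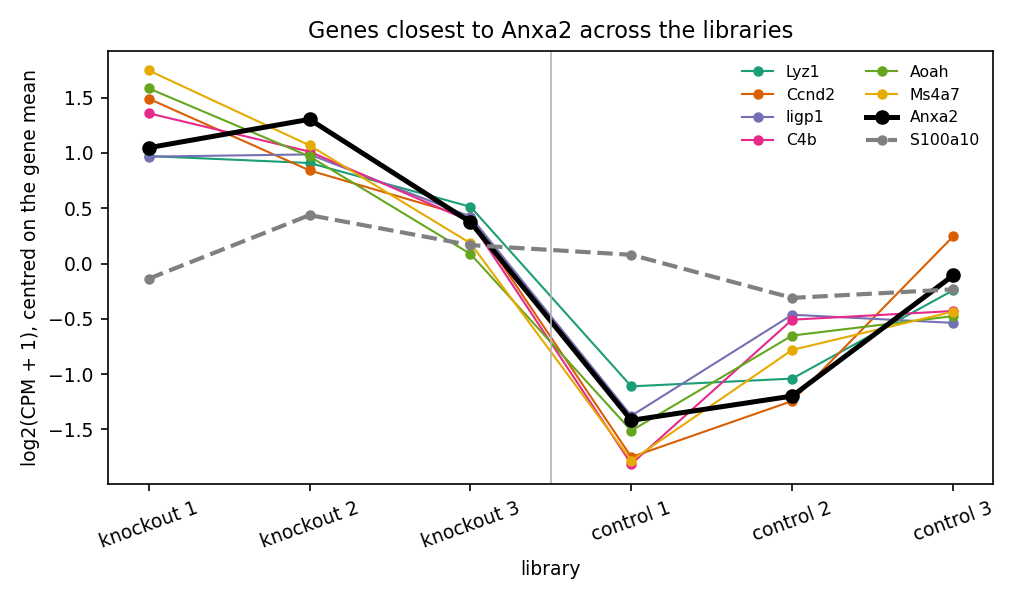
Log2(CPM + 1) of Anxa2, its 6 closest genes and S100a10 in each library, centred on the mean of each gene; lines join the values of a gene and imply no order of the libraries. The 6 close genes, picked for likeness to Anxa2, are by that choice above their means in all knockouts and lowest in control 1. S100a10 stays near its mean.

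The surrounding pathway genes were taken from lists, and edgeR called 0 of the 66 measured genes in them in either direction, as did DESeq2 and limma voom. Before adjustment 7 of the 66 were higher and 1 lower with p under 0.05, where 2.34% of all genes tested were higher and 1.98% lower; with 1 to 18 genes measured in a list, a count of 1 or 2 in it shows little. Of the other annexin genes only Anxa9 was measurable, at 0.490 CPM ± 0.570 in knockouts and 1.19 CPM ± 0.557 in controls, whereas Anxa8, Anxa10 and Anxa13 stayed under 1 CPM in every library. Of 14 other S100 genes 7 were measurable and all 7 had fold changes above 0, 1 of them with p under 0.05 before adjustment. That gene, S100a1, had 25.1 CPM ± 6.28 in knockouts and 15.0 CPM ± 3.77 in controls (log2 fold change 0.78, SE 0.28, edgeR adjusted p = 0.997). S100a8, a subunit of neutrophil calprotectin, had 520, 143 and 50.3 CPM in knockouts 1 to 3 and 13.6, 93.8 and 85.6 CPM in controls 1 to 3, with groups that overlapped as those of Anxa1 did (edgeR adjusted p = 0.999).

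The receptors of annexin A1 were barely detected. Fpr1 and Fpr2, the formyl peptide receptor genes, had at most 3.76 and 1.24 CPM in knockouts and 3.14 and 1.57 CPM in controls, and the other 3 genes of the list had 0 reads in all 6 libraries. Of the plasminogen system, on which the annexin A2 complex acts, 7 of 10 genes were measured, with a median log2 fold change of 0.10 and 1 gene higher with p under 0.05 before adjustment. This was Plgrkt, a plasminogen receptor gene, at 56.8 CPM ± 2.55 in knockouts and 40.5 CPM ± 8.10 in controls (log2 fold change 0.47, SE 0.20, edgeR adjusted p = 0.999). Eno1, a glycolytic enzyme that also binds plasminogen at the cell surface, had 904 CPM ± 150 in knockouts and 798 CPM ± 118 in controls (adjusted p = 0.999 by edgeR). Plg and Plat, for plasminogen and its tissue activator, stayed under 1 CPM throughout.

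Of 8 client and scaffold genes of S100A10, 4 were measured and 1, Ahnak2, was higher with p under 0.05 before adjustment. Ahnak2, a large scaffold protein gene, had 2.15 CPM ± 1.45 in knockouts and 0.538 CPM ± 0.315 in controls, and Asic1, an acid-sensing channel gene, had 0.913 CPM ± 0.560 in knockouts and 0.160 CPM ± 0.177 in controls (edgeR adjusted p = 0.999 for each). Both lay near the floors of the shallow libraries. Of 21 plasma membrane repair genes 18 were measured, with a median log2 fold change of 0.07; before adjustment 2 were higher and 1 lower with p under 0.05. Ehd1, an endocytic recycling ATPase gene, had 9.74, 6.23 and 7.39 CPM in knockouts 1 to 3, against 2.37, 2.85 and 1.57 CPM in controls 1 to 3 (log2 fold change 1.70, SE 0.48, edgeR adjusted p = 0.537). Sri, for the calcium-binding protein sorcin, which binds annexin A7, had 145 CPM ± 11.2 in knockouts and 103 CPM ± 14.9 in controls (log2 fold change 0.49, SE 0.17, edgeR adjusted p = 0.865). In both genes every knockout was above every control. The lower gene was Vps4a, an ATPase gene of membrane scission, named after its values were seen, at 36.0 CPM ± 2.36 in knockouts and 48.1 CPM ± 0.975 in controls (edgeR adjusted p = 0.999).

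Genes for the exposure and recognition of phosphatidylserine, the lipid that annexin A5 binds, had a median log2 fold change of -0.02 over 18 measured genes, and 1, Axl, was higher with p under 0.05 before adjustment. Axl, a receptor that binds phosphatidylserine through its ligand Gas6, had 75.7 CPM ± 15.7 in knockouts and 49.7 CPM ± 17.8 in controls (log2 fold change 0.63, SE 0.27), and Mfge8, a bridging protein gene, had 75.6 CPM ± 14.3 in knockouts and 96.4 CPM ± 6.61 in controls (-0.35, SE 0.18), each with an edgeR adjusted p of 0.999. Of 9 glucocorticoid-responsive genes, taken because Anxa1 is such a gene, 1 was higher and 0 were lower with p under 0.05 before adjustment, and the median was -0.06. That gene, Tsc22d3, which encodes the glucocorticoid-induced leucine zipper, had 237, 195 and 377 CPM in knockouts 1 to 3, against 151, 164 and 170 CPM in controls 1 to 3 (log2 fold change 0.74, SE 0.21, edgeR adjusted p = 0.580). Sgk1, a kinase gene of the same list, had 820 CPM ± 130 in knockouts and 958 CPM ± 116 in controls (edgeR adjusted p = 0.999).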

How the data were processed

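Per the file headers and the values, the deposited table holds raw whole-number read counts per gene, made by the authors and not normalized. Per the submitters' processing notes, STAR, Subread, featureCounts, Salmon and build GRCm39 were used; their settings are not given in the sources used here. Per the labels' protocols, SMARTer cDNA was sheared and amplified without stated molecular identifiers, so intervals and floors cover counting error only. Of 55774 rows, 287 repeated an identifier with equal counts and were dropped; 0 rows named no gene. The test was that of edgeR 4.0.16, run under R 4.3.3 (default expression filter, TMM, robust quasi-likelihood, group only) over 15787 genes and adjusted by Benjamini-Hochberg; SE is the coefficient over the root of F. Alternatives used DESeq2 1.42.0, limma 3.58.1, other scalings and filters, a replicate block and libraries left out. Lengths came from GENCODE M21 (GRCm38), which holds 99.4% of the identifiers. No 2 libraries of a group had counts alike within sampling noise (chi-square per degree of freedom 39.4 or more). The members and lists were chosen with earlier results of these data known. Named genes are the members, Atg7 and Cx3cr1 as a check of the labels, up to 3 called or else 2 lowest-p genes per pathway list, and the 6 genes closest to Anxa2. Other genes are named as markers, as background of a list or where the text says so.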

Additional observations from a re-analysis of the deposited data

How the results depend on the processing

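Over all 15787 genes tested, 5 were called higher and 2 lower. DESeq2 tested 16336 genes, limma voom 15787, the fit without a filter 33118 and that without both shallow libraries 16816. Other tools and settings gave 46 and 33 with DESeq2, 9 and 6 with limma voom, 2 and 2 with voom and library weights, 1 and 1 without the robust option, 60 and 42 without a filter, and 9 and 30 without both shallow libraries. With 1 library left out, calls ranged from 1 to 15 higher and from 1 to 35 lower. DESeq2 size factors gave 5 higher and 3 lower, and library totals and the stricter filter each gave 7 higher and 3 lower. Members called higher were 0 in the fit reported and ranged from 0 to 1 with a library left out. The count was 1 with DESeq2, limma voom, no filter and without both shallow libraries, and 0 lower in all. That member was Anxa2, whose log2 fold change was 1.83 to 2.52 over 16 alternatives. With 1 library left out Anxa11 ran from -0.18 without knockout 3 to 0.028 without control 3, where it reversed; the cause was not tested. The other 9 members stayed above 0 in all 16 alternatives. Anxa1 ran from 0.67 without knockout 1 to 6.36 in voom with library weights. The replicate block gave 16 higher and 9 lower calls and 0 members called. Same-numbered libraries had correlations of 0.300, -0.216 and -0.0585 between their deviations from the group means. Knockout 2 and control 3, the shallow libraries, had 0.287, so such values cannot tell pairing from depth. The labels do not say whether the numbers pair animals. Pathway lists had 0 calls in every setting. Depth limits S100a10, S100a11, Anxa2 and Anxa11 most, with 6 to 13 reads each in control 3.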
